A study of Mus musculus with 2 samples.

Results

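Accessible chromatin was examined around 9 imprinted genes with roles in growth: H19, Igf2, Dlk1, Meg3, Peg3, Ndn, Grb10, Plagl1 and Mest. They were chosen by name, not by a rule on any measured value, but with earlier results of these data known. They came from 27792 protein-coding and long intergenic non-coding (lincRNA) genes in the GENCODE M21 annotation of the mm10 mouse genome. Each gene was taken with 50 kb on either side, and every peak overlapping these windows was collected. The H19 and Igf2 windows overlap, as do those of Dlk1 and Meg3, so the 9 genes occupy 7 stretches of DNA totalling 1.145 Mb.

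The assay was ATAC-seq, which marks open DNA by the places where a transposase can insert adapters. The only group came from adult C57BL/6J mice, 5 to 6 weeks old, and consisted of haematopoietic stem cells with no genetic change or treatment in the labels. It held 2 libraries, replicates 1 and 2. The labels name them biological replicates but give them a single donor identifier, so separate animals are not established, and the spread between them may be technical. A starting quantity of 50000 cells is labelled for replicate 2 and none for replicate 1, and no sorting markers are named. The files list peaks, so read depth is unknown, and in an inbred strain they do not tell the maternal from the paternal allele.

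Imprinted genes are transcribed mainly from 1 parental allele, under the control of DNA methylation set in the egg or the sperm. At H19 and Igf2, the insulator protein CTCF binds the unmethylated maternal control region, and at other loci the zinc finger protein ZFP57 helps to keep methylation on the marked allele. Several of these genes are known in blood stem cells, where the H19 and Igf2 locus and the Dlk1 and Meg3 locus have been linked to quiescence and self-renewal.

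Peaks were read from 8 deposited lists. Of the series' 4 lists, the conservative list holds peaks that passed the irreproducible discovery rate (IDR) in a comparison of both replicates and is the strictest. The series' IDR and replicated lists are longer, and its pseudoreplicated list, called on both libraries together and termed the pooled list here, is the longest. Each replicate also has its own IDR list and its own longer pseudoreplicated list, termed permissive here. Overlapping peaks were merged into regions, and each region carries the authors' signal at its strongest peak. That signal has no stated unit or scaling, and the series' 4 lists repeat the same pooled values, so they are not independent measurements. The conservative list held 31532 regions, the pooled list 86702, replicate 1's IDR list 34588 and replicate 2's 22434. Replicate 1's permissive list held 78665 and replicate 2's 58113, so replicate 2 had the shorter list of each kind.

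The labelled cell type was checked at the promoters of marker genes. In the conservative list, 6 of 10 stem cell markers had a promoter region, among them Kit, Meis1 and Hlf, which is near the 53.7% of all protein-coding genes. None of 3 T cell, 3 B cell or 4 granulocyte markers did, against 2 of 4 erythroid, 1 of 4 endothelial and 2 of 9 stromal markers. In the pooled list, where 68.3% of protein-coding genes had one, all 10 stem cell markers did. So did 4 of 4 erythroid, 4 of 4 endothelial, 3 of 4 granulocyte, 5 of 9 stromal, 1 of 3 T cell and 1 of 3 B cell markers, so the pooled list does not set the stem cell markers apart from the erythroid and endothelial ones. The part of other cell types in the values below was not tested.

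Sequences are given first, because several of these loci are known by their DNA elements. Upstream of H19, the mm10 sequence (GRCm38.p6, chromosome 7) holds 4 matches to the CTCF form of this control region, spelt CCGC, any 2 bases, GG, any base, then GGCAG. They lie on the minus strand, the strand of H19, and are printed 5′ to 3′ with the match in capitals and 8 bases on either side.
H19 −2.17 kb: agacgatgCCGCGTGGTGGCAGtacaatac
H19 −2.63 kb: ggatgctaCCGCGCGGTGGCAGcatactcc
H19 −3.65 kb: cagggttgCCGCACGGCGGCAGtgaagtct
H19 −3.90 kb: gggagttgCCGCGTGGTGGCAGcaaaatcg

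The shorter CTCF core (CC, any 3 bases, then AGGGGGC, on either strand) matched inside 3 pooled regions of the windows. Those 3 matches are shown on their own strand, with distances from the 5′ end of the named gene.
Dlk1 −14.9 kb: gagacccgCCGGCAGGGGGCgcagccag
Meg3 +2.04 kb: catagagaCCGCTAGGGGGCgcgcggcc
Ndn +29.3 kb: gaaagaaaCCACTAGGGGGCagaagaga

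Longer windows of 201 bases, centred on a summit, are shown for 4 sites that the results turn on: the region over the first H19 CTCF match, the promoter region of Peg3, the conservative region between Dlk1 and Meg3, and a Grb10 intron region found in all 8 lists. Capitals mark matches, on either strand, to the motifs searched. These were the CTCF forms above and TGCCGC, the letters read by ZFP57. For factors common in blood cells, CCGGAAG stood for the ETS family of activators, and the letters TGTGGTT stood for the RUNX family. The GATA family was searched by its common core AGATAA, and the stress-responsive AP-1 factors by their palindrome TGANTCA. For the zinc finger protein YY1, ATGGCGGC was searched first, and a second form, GCCATNTT, was added after the Peg3 sequence had been seen. In the H19 window a ZFP57 match overlaps the CTCF match, so 1 run of capitals holds both.
H19, chr7:142580236-142580436, minus strand: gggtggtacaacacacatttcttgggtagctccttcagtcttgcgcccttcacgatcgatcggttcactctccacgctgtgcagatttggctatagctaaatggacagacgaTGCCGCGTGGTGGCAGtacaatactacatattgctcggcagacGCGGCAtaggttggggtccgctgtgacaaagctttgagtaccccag
Peg3, chr7:6729502-6729702, minus strand: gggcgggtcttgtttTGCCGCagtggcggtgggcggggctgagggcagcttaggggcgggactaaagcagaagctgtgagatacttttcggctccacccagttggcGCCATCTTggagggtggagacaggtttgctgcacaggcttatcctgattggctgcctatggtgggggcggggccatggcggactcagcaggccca
Meg3 upstream, chr12:109525694-109525894, plus strand: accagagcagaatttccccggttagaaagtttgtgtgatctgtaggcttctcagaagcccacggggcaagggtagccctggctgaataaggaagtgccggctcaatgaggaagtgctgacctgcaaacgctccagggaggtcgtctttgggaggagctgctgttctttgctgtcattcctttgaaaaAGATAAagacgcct
Grb10 intron, chr11:11973475-11973675, minus strand: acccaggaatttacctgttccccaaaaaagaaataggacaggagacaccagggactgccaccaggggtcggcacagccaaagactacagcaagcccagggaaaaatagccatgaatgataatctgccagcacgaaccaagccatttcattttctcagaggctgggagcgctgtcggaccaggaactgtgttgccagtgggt

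Few of the 9 promoters carried a region in the strict lists, and more did in the permissive ones. A promoter here is the DNA within 1 kb of any annotated transcript start. In the conservative list, 2 of the 9 genes had a promoter region, Peg3 and Grb10, beside 45.1% of all genes tested. The series' IDR list gave the same 2 genes (background 49.4%). In the replicated list there were 6, with Dlk1, Meg3, Plagl1 and Mest added (background 57.6%), and in the pooled list 7, with Igf2 added (background 58.9%). H19 and Ndn had none in any list by these start sites. The background share differs by kind of gene: in the conservative list it was 53.7% for protein-coding genes, 7 of the 9, and 12.9% for lincRNAs, the other two being H19 and Meg3.

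The replicates differed in the same counts. Replicate 1's IDR list had promoter regions at Peg3 and Grb10 (2 of 9, background 45.5%), and replicate 2's IDR list at none (background 39.5%). In the permissive lists, replicate 1 had 5, Meg3, Peg3, Grb10, Plagl1 and Mest (background 56.3%), and replicate 2 had 4, Dlk1, Peg3, Grb10 and Plagl1 (background 54.4%). Peg3, Grb10 and Plagl1 were therefore the promoters with a region in both libraries.

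**Figure D1:**
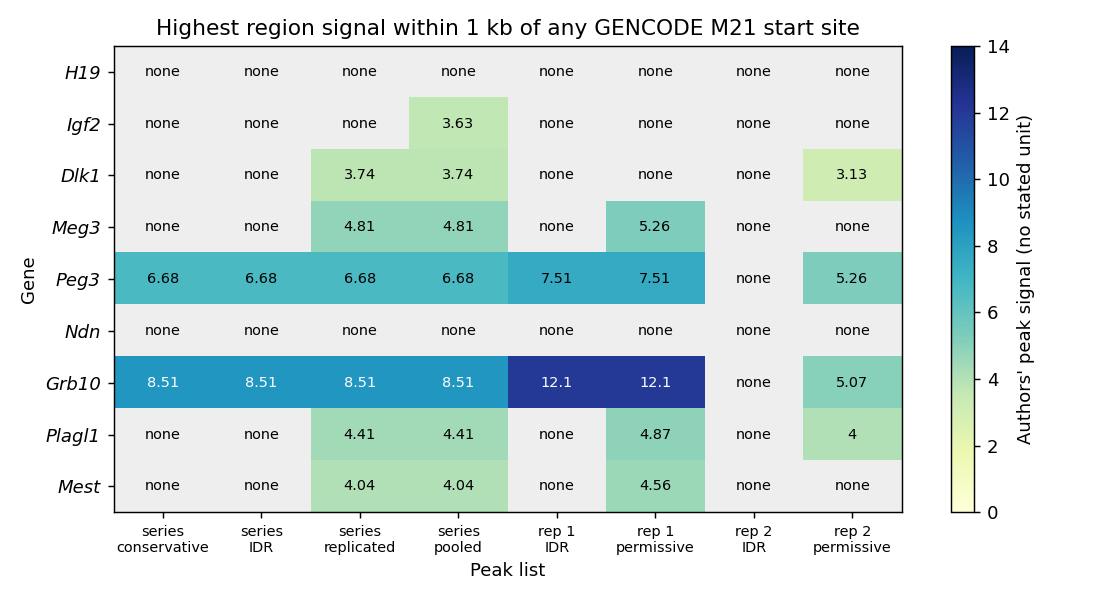
Highest signal of a region within 1 kb of any annotated start site (colour and printed value, no stated unit) for the 9 genes (rows) in the 8 peak lists (columns); grey cells hold no region. Peg3 and Grb10 are the only rows filled in the conservative list, H19 and Ndn are empty throughout, and replicate 2's IDR column is empty.

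H19 encodes a non-coding RNA transcribed from the maternal allele (chr7:142575529-142578143, minus strand). The nearest conservative region lay 44.3 kb downstream, at the promoter of Mrpl23, a mitochondrial ribosomal protein gene, with a signal of 6.63, against 7.46 in replicate 1 and 4.85 in replicate 2. That region was in replicate 2's permissive list but not its IDR list. Closer to the gene, a region 6.12 kb downstream of the 5′ end, past the gene's 3′ end, had 5.12 in the pooled list, 5.92 in replicate 1 and 3.92 in replicate 2. Both libraries thus had a site just beyond H19, in permissive lists only.

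Over the H19 control region, 1 of the 4 CTCF matches fell inside a region. This was the match nearest to the gene, in chr7:142580225-142580437, with a signal of 3.75 in the pooled list, and neither replicate's own lists held the region. The other three matches had none in any list. Across the genome, 26.6% of the 561 matches to this CTCF form lay in a pooled region and 17.3% in a conservative one, where the H19 matches had 0 of 4. Near H19 the pooled share, 1 of 4, was thus near that of the genome.

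**Figure D2:**
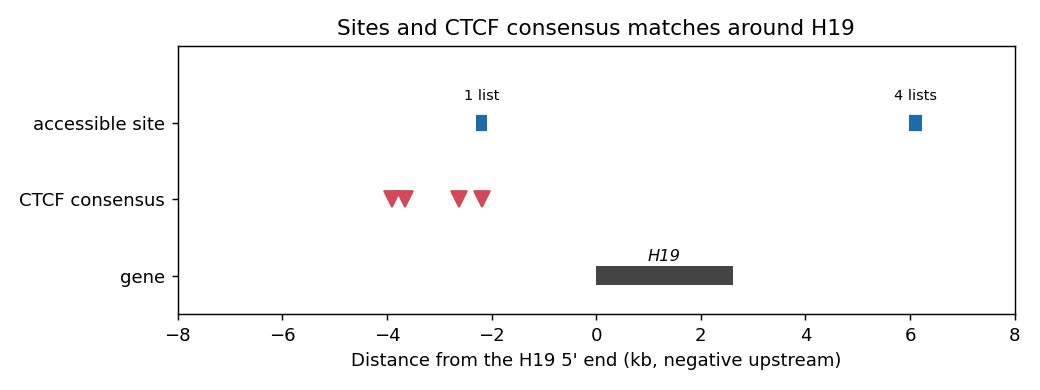
Map of the sites and CTCF matches within 8 kb of the H19 5′ end, with distance in kb on the x axis (negative upstream), blue bars for accessible sites and red triangles for the 4 CTCF matches. The site at −2.19 kb covers the nearest match and was in 1 list, and the site at 6.12 kb was in 4 lists.

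Igf2 encodes an insulin-like growth factor expressed from the paternal allele (chr7:142650766-142666816, minus strand). No conservative or IDR region lay in its window. The pooled list alone had a promoter region, chr7:142658709-142659203, with a signal of 3.63, above 21.6% of the regions of that list. It lies inside a CpG island of 1751 bp that spans Igf2 start sites and also lies at the promoter of the antisense gene Igf2os. A second Igf2 promoter island, of 1311 bp, had no region in any list.

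Outside the gene, the sites near Igf2 were also permissive only. An upstream region at −9.04 kb had 4.15 in the pooled list, 3.73 in replicate 1 and 3.27 in replicate 2. A region at −5.52 kb had 4.05 in the pooled list and 5.05 in replicate 1, and replicate 2 lacked it. Between the genes, 32.6 kb upstream of H19, a region in both windows had 5.35, with 6.26 in replicate 1 and 4.07 in replicate 2. The sites of the Igf2 window found in both libraries were thus 2, at −9.04 kb and between the genes, and neither overlapped an Igf2 start.

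Dlk1 encodes a membrane ligand related to Notch ligands and is expressed from the paternal allele (chr12:109452823-109463336, plus strand). Its window held 11 pooled regions, 99.5 per Mb, a density above that of 79.3% of genes, but no conservative region. At the gene itself the values were low. The start had 2.96 in the pooled and replicated lists and was in neither replicate's lists. A downstream start at +6.87 kb, in a coding exon and a CpG island, had 3.74 in the pooled list and 3.135 in replicate 2 alone.

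The stronger sites of Dlk1 lay upstream and differed between the libraries. The region at −14.9 kb, which holds the first of the CTCF core matches printed above, had 5.67 in the pooled list, 7.20 in replicate 1 and 3.25 in replicate 2. The region at −11.2 kb had 4.92 in the pooled list, 3.63 in replicate 1 and 5.18 in replicate 2. Replicate 1's IDR list held only the former and replicate 2's only the latter. This second region was 1 of 2 shared sites in all windows at which replicate 2 had the higher value, the other being 1.99 kb inside Plagl1 (3.29 and 4.05). Both were named after their values had been seen.

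Meg3 encodes a maternally expressed non-coding RNA (chr12:109541001-109571726, plus strand), and the germline imprint of the locus is known to lie between it and Dlk1. The sole conservative region of its window lay in that stretch, intergenic at −15.2 kb, chr12:109525669-109526053. It had a signal of 6.34 in the series' lists, 6.58 in replicate 1 and 5.12 in replicate 2, and was in both permissive lists but neither replicate's IDR list. A CpG island at −12.6 kb, 543 bp long, had no region in any list.

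At the gene, a region at +2.02 kb in a non-coding exon had 4.81 in the pooled list and 5.26 in replicate 1, and replicate 2 lacked it. It counts as a Meg3 promoter region through an alternative GENCODE start, holds the CTCF core match shown above, and was not within 1 kb of either RefSeq start. The CpG island of 522 bp at the first start had no region in any list. Further upstream, the sites at −10.6 kb (3.56 pooled, 4.02 in replicate 1) and −9.11 kb (3.25 pooled, 4.13 in replicate 1) overlap the promoter of Gm27528, an unnamed gene model. Replicate 2's lists held neither.

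Peg3 encodes a paternally expressed zinc finger protein (chr7:6703892-6730431, minus strand). Its promoter region, chr7:6729269-6729869, had its summit 0.829 kb downstream of the 5′ end, in an intron. The signal was 6.68 in the series' 4 lists, 7.51 in replicate 1 and 5.26 in replicate 2, and replicate 2's IDR list lacked it. The region also overlaps the promoter of Usp29, a gene read in the other direction, so its signal cannot be assigned to one of the pair. At the start itself a separate, weak region had 2.32 in the pooled list, above 0.925% of its regions, and was in no list of either replicate.

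The Peg3 summit window printed above holds 1 ZFP57 match and 1 of the second YY1 form, where the whole region holds 4 and 2. That YY1 form was picked from this sequence, so its presence here is a description only. Among all summit windows of 201 bases, 4.07% of conservative regions and 3.30% of pooled regions hold it, and 1 of 13 and 2 of 62 in the imprinted windows do. Adjacent intron sites were weak, with 2.62 in the pooled list at +1.60 kb and 2.00 in the replicated list at +2.37 kb, and neither replicate's lists held them. Downstream, the promoter of Zim1, a neighbouring zinc finger gene, had 5.77 in the pooled list, 6.58 in replicate 1 and 4.05 in replicate 2.

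Ndn encodes necdin, a paternally expressed growth suppressor (chr7:62346569-62350262, plus strand). Its region, chr7:62348134-62348781, had its summit 1.74 kb past the GENCODE 5′ end, so it missed the promoter rule, but it spans the RefSeq start at position 62348277. Its signal was 7.69 in the conservative list, 7.90 in replicate 1 and 5.71 in replicate 2, and neither replicate's IDR list held it. It nearly fills a CpG island of 679 bp. With RefSeq starts, the conservative list had promoter regions at 2 of the 9 genes, Peg3 and Ndn, beside 40% of 27026 gene symbols. H19 had no match in that table and so counts as without one.

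Around Ndn, some sites were found in replicate 1 alone. The promoter of Magel2, a neighbouring paternally expressed gene, had 3.40 in the pooled list, 3.89 in replicate 1 and 3.78 in replicate 2. The other conservative region of the window, at +36.0 kb, had 7.05, with 7.57 in replicate 1 and no region in replicate 2. At +53.8 kb, on the edge of the window, replicate 1's IDR list had 13.2 and the series' IDR list 8.65, while replicate 2's lists had no region. That site, named after its value was seen, had the highest signal among the 23 sites of replicate 1 that no list of replicate 2 held. The site at +29.3 kb, which holds a CTCF core match, was in the pooled list only, at 3.91.

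Grb10 encodes an adaptor protein that dampens signalling from the insulin and insulin-like growth factor receptors (chr11:11930508-12038683, minus strand). It is expressed from the maternal allele in most tissues and from the paternal allele in neurons, from separate promoters. Its window held 5 of the 13 conservative regions and 16 of the 62 pooled ones. The CpG islands at its starts, an upstream and an inner one, differed in signal.

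The island at the upstream starts, 1799 bp long, had 3 separate regions in the series' permissive lists, at 3.32, 3.80 and 2.76. Of these, the one of 3.80 was in replicate 2's permissive list, at 3.24, and replicate 1's lists held none of them. The inner island, 1313 bp long and centred 12.6 kb from the gene's 5′ end, held chr11:12025567-12026341, with 8.51 in the conservative list, 12.05 in replicate 1 and 5.07 in replicate 2. This was the higher island in each library, with replicate 2's IDR list lacking both. The summit lies in an annotated UTR. Its window of 201 bases holds no ZFP57 match, but the whole region holds 4. The region has a CpG ratio of 1.01 (observed over expected). It lies over 1 kb from both RefSeq starts of Grb10, so it counts as a promoter by GENCODE alone.

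Beyond its promoters, Grb10 had sites that every list held. The intron site at +65.1 kb had 9.0 in the conservative list, 10.5 in replicate 1 and 6.15 in replicate 2. The site at −12.0 kb, upstream of the gene, had 8.51, 9.25 and 7.05 in the same order. A site 152 kb from the 5′ end, in an intron of the neighbouring gene Ddc, which encodes an aromatic amino acid decarboxylase, had 9.56, 10.95 and 6.73. These were 3 of the 5 sites of all windows found in all 8 lists. The fifth conservative region of the window, an intron site at +90.1 kb, was weaker, at 6.26.

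Plagl1 encodes a zinc finger protein that restrains the cell cycle and is expressed from the paternal allele (chr10:13060504-13131694, plus strand). Its CpG island promoter, 30.3 kb into the GENCODE gene and at the RefSeq start, had a region in the permissive lists of both libraries, with 4.87 in replicate 1, 4.0 in replicate 2 and 4.41 in the pooled list. Its summit window holds 1 ZFP57 match, and the whole region holds 4. The conservative list lacked it and instead held 2 distal sites. The site at −43.8 kb had 7.43, with 9.37 in replicate 1 and 5.01 in replicate 2. The site at 113 kb, in an intron of the neighbouring Zc2hc1b, had 8.29, with 7.72 and 7.44, the closest pair of values among the conservative sites of the windows.

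Mest encodes an enzyme of the alpha/beta hydrolase family and is expressed from the paternal allele (chr6:30723547-30748465, plus strand). Its promoter region, at +13.6 kb, had 4.04 in the pooled list and 4.56 in replicate 1, and replicate 2 lacked it. That region lies in an island of 725 bp that precedes the RefSeq start at 30738050, and the next island, of 973 bp, which spans this start, had no region in any list. The window's one conservative region lay at the promoter of Cep41, a centrosomal protein gene, at −29.8 kb. It had 10.2 in the conservative list, 16.5 in replicate 1 and 6.99 in replicate 2, the highest signal of the windows in the conservative list and in replicate 1. In replicate 2, the sites 113 kb from Plagl1 (7.44) and 12.0 kb upstream of Grb10 (7.05) were higher. The promoter of highest signal in the Mest window was thus a neighbour's, in both libraries.

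**Figure D3:**
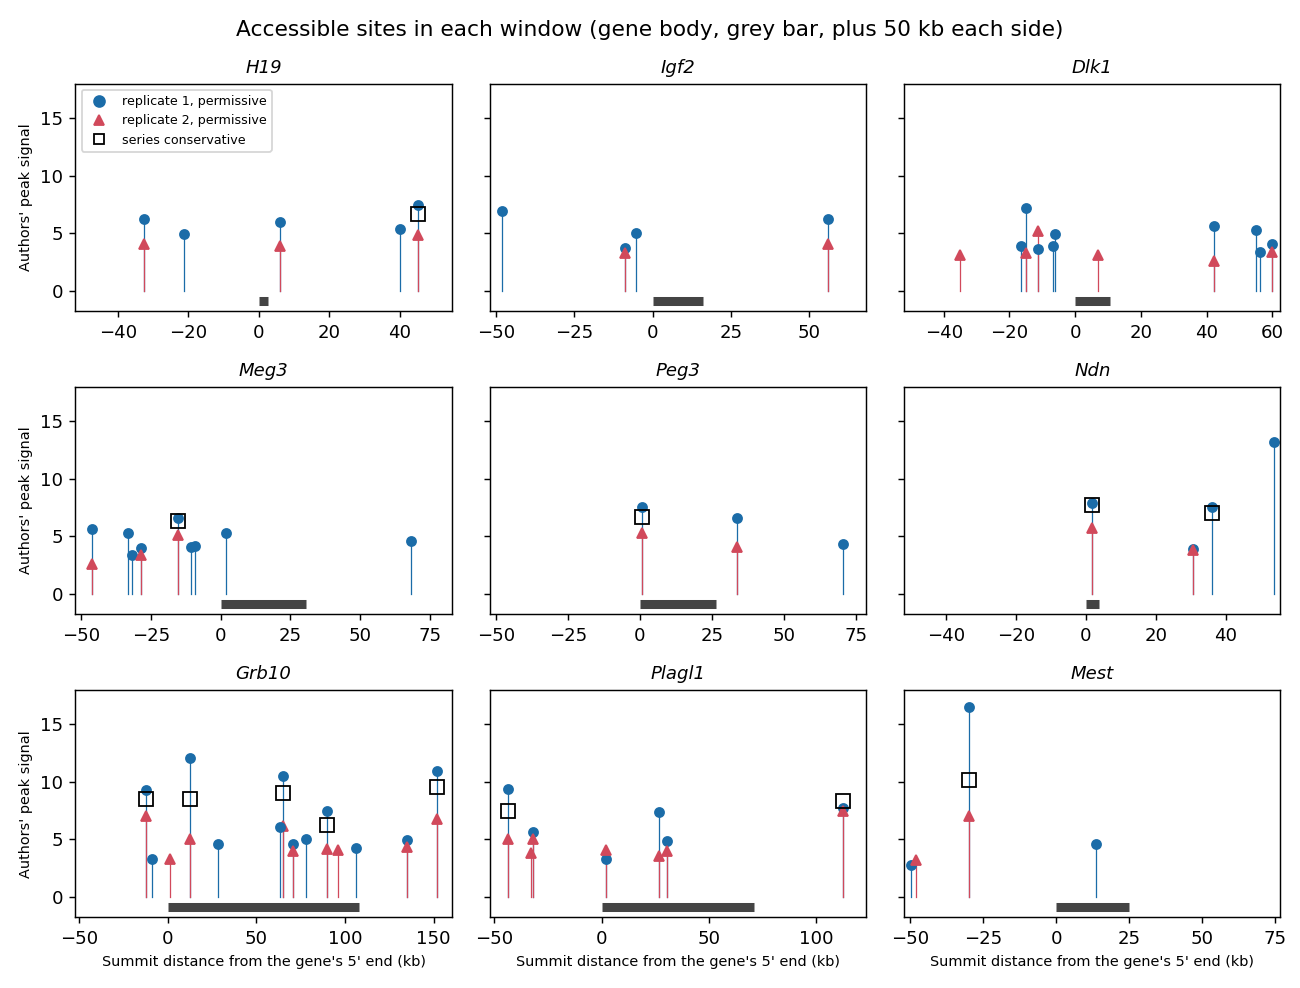
Signal of each site (y axis, no stated unit) against its distance from the gene's 5′ end in kb (x axis, negative upstream), 1 panel a gene; blue circles are replicate 1's permissive list, red triangles replicate 2's, open squares the conservative list, grey bars the gene. The Grb10 panel holds 5 squares, the Igf2 and Dlk1 panels none, and the highest circle is the Cep41 promoter in the Mest panel, at 16.5.

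Over all 9 windows the strict and permissive lists differed in density. The conservative list had 13 regions, 11.4 per Mb, where the median gene window with the same flanks had 19.6 per Mb. The pooled list had 62, or 54.2 per Mb, beside a median of 55.6. The densities of 11.4 and 54.2 are over the joined stretches, whereas the medians are of single gene windows, so the measures differ. By gene, Grb10 alone exceeded the conservative median, at 24.0 per Mb, and Ndn was close, at 19.3. In the pooled list Dlk1, Grb10 and Meg3 exceeded the median, at 99.5, 76.9 and 61.2 per Mb, and the other genes did not. In the conservative list 7 of the 9 windows held a region, beside 76.9% of all genes, and in the pooled list all 9 did, beside 85.2%.

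The 13 conservative regions had a median signal of 7.69 and ranged from 6.26 to 10.2, where all 31532 had a median of 8.33. Their median width was 548 bp against 598 bp, their median GC content 52.2% against 54.7% and their median CpG ratio 0.366 against 0.380, over summit windows of 201 bases. They were thus close to the whole list in sequence make-up. By GENCODE starts, 2 lay at a member's promoter, 2 at a neighbour's (Mrpl23 and Cep41) and 9 at no promoter. Among these 9 is the Ndn region, which spans the RefSeq start of Ndn. The split by promoter was not made for all 31532 regions, so it has no background here.

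Across the 8 lists there were 70 separate sites. By GENCODE starts, 12 lay at a promoter of the 9 genes, 9 at another gene's promoter and 49, the Ndn region included, at none. Permissive lists alone held 51 of the 70. Both libraries' permissive lists held 27, replicate 1 alone held 23, replicate 2 alone 6, and 14 were in series lists only. None of these counts of the 70 sites was made over all regions, so they have no background here. Genome-wide, replicate 1's permissive list was the longer, with 78665 regions against 58113. Of the 27 shared sites, replicate 1's value was higher at 25, with a median ratio of 1.43. Over all 48575 regions shared that way it was higher at 87.9%, with a median ratio of 1.38, so the direction is that of the libraries as a whole. How the 2 libraries' signals were scaled is not given in the sources used here.

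**Figure D4:**
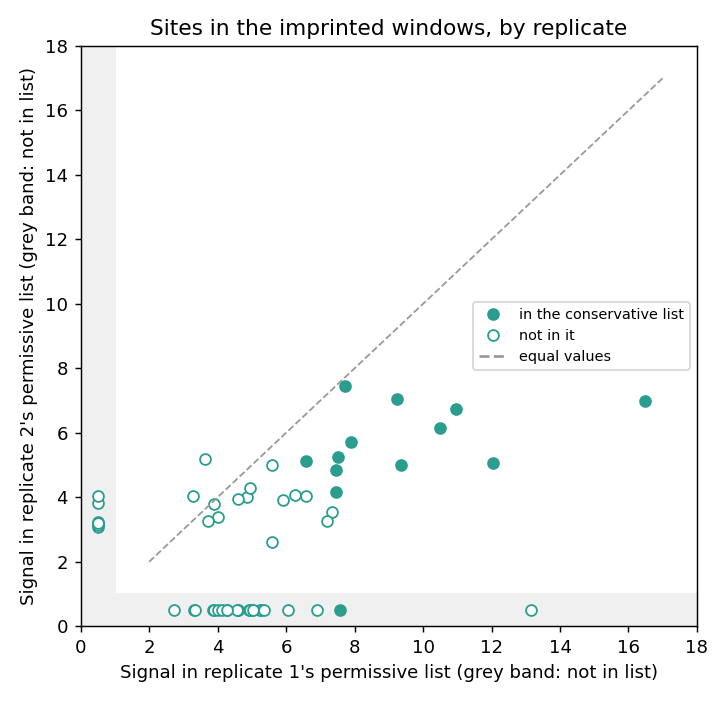
Signal in replicate 2's permissive list (y axis) against replicate 1's (x axis) for the sites of the windows, neither with a stated unit; filled points are in the conservative list, the dashed line marks equal values, and points in a grey band are absent from that replicate's list. Of the 27 shared sites, 25 lie below the line, and the point at 13.2 in the lower band is the site 53.8 kb from Ndn.

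Of the 13 conservative regions, replicate 1's IDR list held 10 (76.9%, against 84.6% of all conservative regions) and replicate 2's 5 (38.5% against 65.3%). Both permissive lists held 12 (92.3% against 98.1%), the exception being the site 36.0 kb from Ndn. Of the 62 pooled regions, both permissive lists held 27, 43.5% against 55.1% over the whole list. Replicate 1's permissive list held 45 (72.6% against 82.4%) and replicate 2's 33 (53.2% against 62.8%).

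CpG islands are stretches rich in CpG that mark many promoters, and some of them carry imprint methylation. Islands were defined after the regions had been seen, from windows of 200 bp with at least 50% GC and a CpG ratio of at least 0.6, merged to at least 500 bp. By GENCODE starts, promoters of the 9 genes hold 11 islands: 2 each at Igf2, Dlk1, Grb10 and Mest, and 1 each at Meg3, Peg3 and Plagl1. The Ndn island of 679 bp, which holds the RefSeq start of Ndn, is not among them. It had a region of 7.69 in the conservative list. A conservative region overlapped 2 of the 11, at Peg3 and Grb10, where 67.6% of all 13367 promoter islands had one. In the pooled list 8 of the 11 had one, beside 86.3%. The permissive lists gave 4 of 11 in replicate 1, beside 82.1%, and 5 of 11 in replicate 2, beside 80.5%. The 3 of the 11 with no region in any list were at Igf2, Meg3 and Mest. Over all 18 islands in the windows, at promoters or not, the shares were mixed. The conservative list overlapped 5 (27.8%, against 38.9% of all 25130 islands) and the pooled list 13 (72.2% against 51.7%). The permissive lists overlapped 8 in replicate 1 (44.4% against 48.6%) and 9 in replicate 2 (50% against 47.5%). The H19 control region holds no island by this rule, so these counts do not cover it.

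Where these promoter islands did have a pooled region, its signal was mostly low. The 8 had a median of 3.92 and ranged from 2.96 to 8.51, whereas the 11536 promoter islands with a pooled region had a median of 8.56 and a 10th percentile of 3.91. Of the 8, only Peg3 and the inner Grb10 island exceeded the 25th percentile of all, 5.77. The Ndn island, left out of this set by GENCODE starts, had a pooled signal of 7.69, also above it. DNA methylation was not measured.

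**Figure D5:**
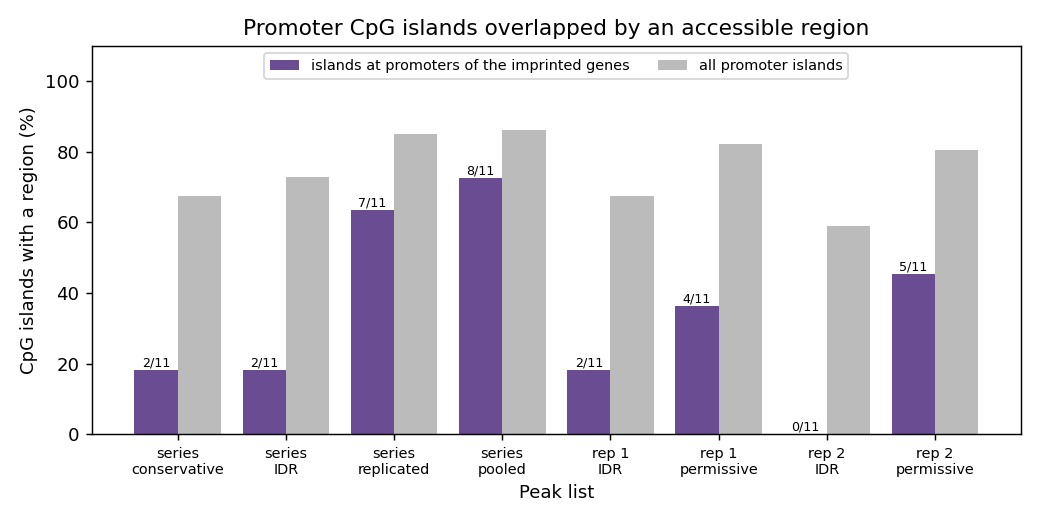
Share of promoter CpG islands overlapped by a region (y axis, percent) in each of the 8 peak lists (x axis), in purple for the 11 islands at promoters of the 9 genes, with counts above the bars, and in grey for all 13367 promoter islands. The purple bar is the lower of the pair in each list. It runs from 0 of 11 in replicate 2's IDR list to 8 of 11 in the pooled list. The 11 islands follow GENCODE starts, so the Ndn island at its RefSeq start is not counted.

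Most of the motifs searched were found in few summit windows. Among the 62 pooled regions, ZFP57 matched 8 (12.9%, against 6.71% of all pooled regions), RUNX 6 (9.68% against 10.2%), AP-1 5 (8.06% against 8.44%), GATA 3 (4.84% against 8.72%), the CTCF core 3 (4.84% against 3.03%) and ETS 2 (3.23% against 4.23%). Among the 13 conservative regions, ZFP57 matched 2, where 9.46% of all conservative regions matched. ETS, RUNX, GATA and AP-1 matched 1 each, where 7.74%, 10.1%, 6.53% and 7.64% of all conservative regions did. No conservative region matched the CTCF core or the first YY1 form, which 3.51% and 1.58% of all conservative regions did. These are counts of letters and not of bound proteins, and sites spelt otherwise than the forms searched were not counted.

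Other genes of the pathway were read from lists of names. Of 58 other imprinted genes found in the annotation, 24 had a conservative promoter region, beside the 45.1% of all genes. A pooled one was present at 41, beside 58.9%. The set is not separate from the windows above. Usp29 counts through the Peg3 promoter region, and Zim1 and Magel2 through pooled regions already described. The highest signals were at Ppp1r9a (16.15 in the conservative list, 18.6 in replicate 1, 11.2 in replicate 2), Inpp5f (14.7, 14.9 and 12.4), Copg2 (13.1, 14.1 and 10.9), Trappc9 (12.4, 14.03 and 9.62) and the antisense RNA Kcnq1ot1 (12.4, 13.9 and 9.10). Each was above the highest conservative signal in the windows of the 9 genes. Dcn, Dio3, Ins2, Kcnk9 and Mcts2 had no promoter region in any list, as H19 did not.

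Genes that act with these growth regulators were mixed. Of 13 genes of growth factor and Notch signalling, 7 had a conservative promoter region and 10 a pooled one, near the 53.7% and 68.3% of all protein-coding genes. The insulin receptor gene Insr had 10.9 in the conservative list, 11.2 in replicate 1 and 9.26 in replicate 2. Igf1r and Igf2r, which encode the receptors that bind the IGF2 protein, had none in the conservative list and pooled values of 5.98 and 6.62. Igf2bp1 and Igf2bp3, whose proteins bind Igf2 messenger RNA, had none in any list.

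Of 12 genes whose products set or read imprints, 8 had a conservative promoter region and all 12 a pooled one, beside 53.7% and 68.3% of all protein-coding genes. The cohesin gene Rad21 had 14 in the conservative list, 14.5 in replicate 1 and 11.1 in replicate 2, and the maintenance methyltransferase gene Dnmt1 had 11.2, 12.5 and 9.70. Zfp445, which like ZFP57 guards imprints, had 12.5, and Ctcf had 5.14. Zfp57 itself had no conservative region, with 4.70 in the pooled list, 5.07 in replicate 1 and 3.82 in replicate 2. Dnmt3b, Dnmt3l and Dppa3 were the other three without a conservative region.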

How the data were processed

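The 8 peak lists used are the authors' deposited files on mm10, per the labels, and the peak signal is the authors' deposited value with no stated scaling. Which aligner and caller made them is not given in the sources used here. The conservative IDR list was the main list. Overlapping peaks were merged, and the peak of highest signal gave a region's signal and summit. Promoters were 1 kb on either side of GENCODE M21 transcript starts, and islands and motifs were read from GRCm38.p6. RefSeq starts (GRCm38 table) matched 8 of the 9 genes. Regions were counted without a significance test, since there was 1 group of 2 libraries, and the background is the share of all genes, islands or matches. Python 3.11.15, NumPy 2.4.6, pysam 0.24.0, samtools 1.23.1 and Matplotlib 3.10.9 were used, and the overlap, motif and island code was tested on simulated data.

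The members and lists were chosen with earlier results of these data known. Values in full were given, by rule, for each region at a member's promoter, the 2 conservative regions of highest signal per window and each region with a CTCF match. Neighbours were named where a region overlapped their promoter, with the 5 other imprinted genes of highest conservative signal and the first 5 by name with none. Others were named after their values were seen. Alternatives were the other lists, other promoter and window sizes, the 5′-most start, unmerged peaks, summit position and RefSeq starts.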

Additional observations from a re-analysis of the deposited data

How the results depend on the processing

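The number of the 9 genes with a promoter region (2 in the conservative list) was 6 in the replicated list, 7 in the pooled list, 1 with promoters of 500 bp on either side and 1 with the 5′-most start alone. With 1 replicate left out it ranged from 0 to 5 (0 and 4 without replicate 1). The 13 regions in the windows became 55 in the replicated list, 62 in the pooled list, 5 with flanks of 10 kb, 21 with flanks of 100 kb and 20 with peaks unmerged, and ranged from 6 to 50 with a replicate left out (6 and 33 without replicate 1). The density of 11.4 per Mb became 48.0 (replicated), 54.2 (pooled) and 17.5 (unmerged), and ranged from 5.24 to 43.7 with a replicate left out (5.24 and 28.8 without replicate 1). The lists themselves differ in length, and which step sets each difference was not tested. The other alternatives stayed within 1.5 times of these counts, RefSeq starts (2 genes, chosen after seeing the data) included, though with Ndn in place of Grb10. Of the counts per window, 60 moved and 39 did not, and of the promoter signals 1 moved and 19 did not.

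No paired analysis was possible because the series holds 1 group, so its replicate numbers pair no groups. Peak lists give no read counts, so a region that a list lacks was not called at an unknown depth, which does not show that the DNA was closed. With 2 libraries no spread can be given for a signal, and their scaling is unknown. Peaks do not separate the parental alleles.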
